A study of Mus musculus with 9 samples.

Results

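The genes described are those of gastric chief cells and the digestive enzymes of the stomach: Pgc, Pga5, Gif, Chia, Lipf and Bhlha15. They were taken as every non-control probe whose gene name on the array design, or current RefSeq symbol, was one of these 6 names, which gave 7 probes of 55681. Pgc had 2 probes and the others 1 each. In current naming Gif is Cblif and Chia is Chia1. Of the 6 genes, 5 were bright enough to be tested, among 21729 genes tested in all.

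The arrays measured RNA from whole stomachs of newborn mice, killed at birth, with 1 mouse per 1-colour array. There were 5 knockout mice (KO 1 to KO 5), which lack C/EBPβ, the leucine zipper transcription factor made by Cebpb, and 4 wild-type mice (WT 1 to WT 4). No other allele or treatment is given for either group, and neither the strain nor the removed stretch of Cebpb is stated. The source label calls the animals old, while the protocol places them at birth. The RNA, 0.3 µg per mouse, was primed with oligo dT for cDNA synthesis, and the cDNA carried Cy3.

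Chief cells lie at the base of the glands of the stomach body and store inactive digestive enzymes in large zymogen granules. Pepsinogens, the best known of these, are cut to pepsins by acid from neighbouring parietal cells. In mice the chief cell also makes intrinsic factor, and its mature secretory form depends on the transcription factor Bhlha15, known as Mist1. In rodents chief cells become fully mature only in the weeks after birth.

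The probes that read the pepsinogens are shown because the pepsinogen values rest on them. Both Pgc probes lie on the forward strand of chromosome 17 in build mm9, at chr17:47871203-47871263 (from base 1159 of the transcript) and chr17:47869392-47869451 (from base 778). The Pga5 probe lies on the reverse strand at chr19:10743903-10744036, from base 993. That interval spans 134 bases for a probe of 60, so the probe does not match the genome in 1 unbroken piece. All 3 are printed in lower case as the array design gives them.
Pgc, first probe: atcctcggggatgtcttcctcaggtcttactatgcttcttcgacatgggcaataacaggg
Pgc, second probe: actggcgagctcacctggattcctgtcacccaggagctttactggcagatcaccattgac
Pga5: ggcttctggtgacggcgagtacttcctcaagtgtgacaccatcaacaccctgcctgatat
The other probes lie on the forward strand at chr19:11837878-11837937 for Gif, chr19:34051173-34051232 for Lipf, chr3:105934967-105935026 for Chia and chr5:144955175-144955234 for Bhlha15, all in mm9. Exon and UTR annotation of that build was not used here.

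Of the members, 5 had a RefSeq promoter entry (GRCm38.p6), and their 250 bases before the start were searched on both strands for 4 motifs. The TATA box was searched for only as the exact sequence TATAAA, not in its other forms. TATAAA occurred once before Pgc, 31 bases from the start, and once before Chia, 43 bases from the start. It was not found before Gif, Lipf or Bhlha15, and 12.4% of 32851 promoters held it in a window of that length. The last 60 bases before both starts are printed with this motif in capitals, Pgc at chr17:47726782-47726841 and Chia at chr3:106113322-106113381, both on the forward strand.
Pgc promoter: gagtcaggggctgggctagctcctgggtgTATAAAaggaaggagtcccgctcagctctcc
Chia promoter: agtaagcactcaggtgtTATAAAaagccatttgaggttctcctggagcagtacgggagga
The C/EBP pattern TTGCNNAA was in 0 of the 5 promoters, against 9.56% of all. The E-box CAGCTG was in 0 of the 5, against 13% of all. Any E-box, CANNTG, which also takes in CAGCTG, had 0 matches before Pgc, 1 before Gif, 4 before Lipf, 3 before Chia and 3 before Bhlha15, and 66.2% of all promoters held at least 1.

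The value reported throughout is log2 of the processed signal minus the log2 signal at the 75th percentile of the same array's probes, so that 0 is that percentile. The percentile ran from 195 to 408 in signal, and 50.9% to 57.2% of spots per array were well above background by the scanner software's flag. None was saturated. Wild-type Cebpb averaged 3.50 ± 0.32 (SD, n = 4) and knockout Cebpb −1.97 ± 0.60 (SD, n = 5), and the groups lay apart. The arrays came from 4 slides: slide 1 held KO 4, KO 5, WT 3 and WT 4, slide 4 held KO 2, WT 1 and WT 2, and slides 2 and 3 held KO 3 and KO 1. WT 4 departed from WT 1 to WT 3 in its forestomach squamous genes, with a list mean of 3.44 against 5.45. KO 2, KO 4 and KO 5 had low Y-linked signal, at mean log2 levels of −5.16, −6.25 and −6.86. KO 1, KO 3 and all wild-type mice had it, at −1.54 to −0.68. By this signal the sexes were unbalanced between the groups, so sex and genotype cannot be fully told apart. With this spread inside the knockout group, Uty, Ddx3y and Eif2s3y did not pass the threshold between genotypes (limma adjusted p = 0.447, 0.510 and 0.535).

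No member passed the test between knockout and wild type. Of 5 members tested, 0 passed an adjusted p of 0.05 (limma, Benjamini-Hochberg over 21729 genes), against 0.207% of all genes (0.129% higher and 0.0782% lower in knockout). At an unadjusted p of 0.05 the count was also 0, against 8.84% of all genes, and 0 members had groups that did not overlap, against 3.40% of all genes, or 2.43% with knockout the higher. Mean levels were higher in knockout for 4 of the 5 and lower for 1, with a median difference of 0.19, beside 0.02 over all genes, of which 53.0% were higher. In this bulk tissue, fewer cells of a type and less RNA per cell cannot be told apart.

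**Figure D1:**
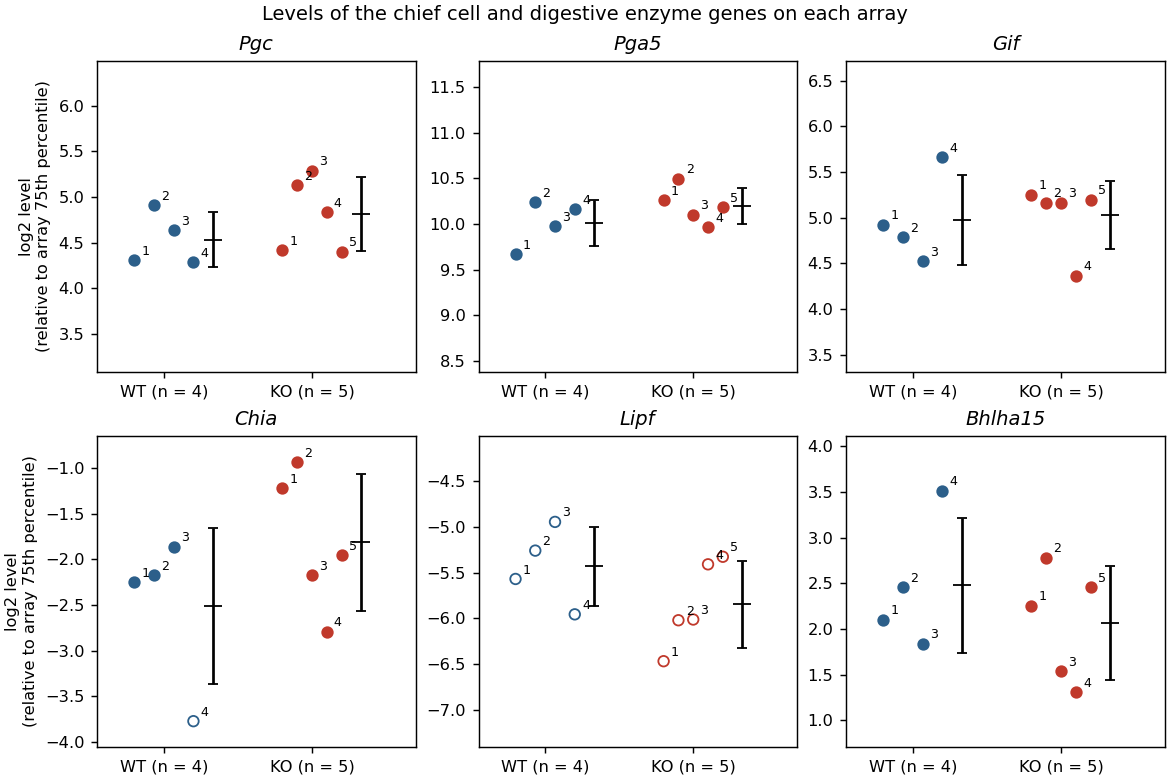
Log2 level of each member on each array, relative to the array's 75th percentile, for 4 wild-type (WT) and 5 knockout (KO) mice. Filled points are well above background and open points are not, small digits are mouse numbers, and bars give mean ± SD. Every panel spans the same number of log2 units, and in every panel the groups overlap.

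Pgc encodes progastricsin, the pepsinogen C of chief cells. Its first probe stood at a log2 level of 4.42, 5.13, 5.29, 4.83 and 4.40 on KO 1 to KO 5. On WT 1 to WT 4 it stood at 4.31, 4.91, 4.63 and 4.29. KO 3 and KO 2 were highest and WT 4 and WT 1 lowest, but KO 1 and KO 5 lay below WT 2 and WT 3, so the groups overlapped. The level averaged 4.81 ± 0.40 (SD, n = 5) in knockout and 4.53 ± 0.30 (SD, n = 4) in wild type. The difference was 0.28 ± 0.23 on the log2 scale (SE; limma adjusted p = 0.815; exact permutation p = 0.262). Its 95% confidence interval, −0.24 to 0.80, takes in knockout levels from 0.846 to 1.74 times wild type. Leaving out 1 array at a time gave differences from 0.16 without KO 3 to 0.40 without WT 2.

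The second Pgc probe followed the first over the 9 arrays, with Pearson's r = 0.94 and Spearman's rho = 0.95 (exact permutation p = 0.000143 and 0.000353). Without KO 2 and KO 3, the arrays farthest from the median of the first probe, r was 0.91. It averaged 2.83 ± 0.52 (SD, n = 5) in knockout and 2.41 ± 0.57 (SD, n = 4) in wild type, a difference of 0.43 ± 0.33 (SE; limma adjusted p = 0.813 over 30203 probes; exact permutation p = 0.286). Both probes thus gave a higher mean in knockout that did not pass the test, and both ranked KO 3 highest and WT 4 lowest.

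Pga5 encodes pepsinogen A5, of the other main class of pepsinogens. Its log2 level was 10.26, 10.49, 10.10, 9.97 and 10.19 on KO 1 to KO 5, against 9.67, 10.24, 9.98 and 10.16 on WT 1 to WT 4. In linear terms its probe gave from 816 times the 75th percentile on WT 1 to 1442 times on KO 2, so the message was abundant at birth in both genotypes. It varied least of the 6 members over the arrays, with an SD of 0.23 and 1.77-fold between its highest and lowest array. The knockout mean was 10.20 ± 0.20 (SD, n = 5) and the wild-type mean 10.01 ± 0.25 (SD, n = 4). They differed by 0.19 ± 0.17 (SE; limma adjusted p = 0.831; exact permutation p = 0.262), and the interval from −0.19 to 0.57 corresponds to 0.877 to 1.48 times wild type. Without WT 1, the lowest array, the difference was 0.08, and on slide 1 alone it was 0.01.

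Gif encodes intrinsic factor, which binds vitamin B12 for uptake in the ileum. Its log2 level was 5.25, 5.16, 5.17, 4.36 and 5.20 on KO 1 to KO 5, against 4.93, 4.79, 4.52 and 5.66 on WT 1 to WT 4. The knockout arrays other than KO 4 lay within 0.1 of each other while KO 4 was the lowest of all 9 arrays and WT 4 the highest. The means were 5.03 ± 0.37 (SD, n = 5) in knockout and 4.97 ± 0.49 (SD, n = 4) in wild type. The difference was 0.05 ± 0.27 (SE; limma adjusted p = 0.984; exact permutation p = 0.833; 95% interval −0.54 to 0.65). Its sign turned with slide as a block (−0.06) and on slide 1 alone (−0.31). Without WT 4 it was 0.28 and without KO 4 it was 0.22.

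Chia encodes acidic mammalian chitinase, an enzyme that stays active in acid and digests chitin. Its signal was dim: well above background on all 5 knockout arrays and on WT 1 to WT 3, but not on WT 4. The log2 level was −1.22, −0.93, −2.17, −2.79 and −1.96 on KO 1 to KO 5, against −2.25, −2.17, −1.86 and −3.77 on WT 1 to WT 4. KO 1 and KO 2 were the highest arrays, and KO 4 lay below WT 1, WT 2 and WT 3. Means were −1.82 ± 0.75 (SD, n = 5) in knockout and −2.51 ± 0.85 (SD, n = 4) in wild type, 0.70 ± 0.46 apart (SE; limma adjusted p = 0.753; exact permutation p = 0.238). The interval of that difference, −0.33 to 1.73, reaches from 0.795 to 3.31 times wild type. Without WT 4 the difference was 0.28, and with normexp background correction, which changes dim probes most, it was 0.17. On slide 4 alone, where KO 2 stood against WT 1 and WT 2, it was 1.28 (limma adjusted p = 0.103), a fit in which the lone knockout array is assumed to vary like the wild-type ones.

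Lipf encodes gastric lipase, which starts fat digestion in the stomach. Its probe read a processed signal of 2.89, 3.78, 6.33, 9.19 and 9.81 on KO 1 to KO 5, against 7.41, 7.74, 8.48 and 3.14 on WT 1 to WT 4. These values amount to 1.13% to 3.25% of each array's 75th percentile. The probe was not well above background on any of the 9 arrays, so it gives no fold and was not tested. The gastric lipase message was therefore not detectable by this probe in either group.

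Bhlha15 encodes the basic helix-loop-helix factor Mist1, which scales up the secretory apparatus of chief cells and other exocrine cells. Its log2 level was 2.26, 2.78, 1.54, 1.31 and 2.46 on KO 1 to KO 5, against 2.10, 2.46, 1.84 and 3.51 on WT 1 to WT 4. WT 4 stood above every other array, and KO 3 and KO 4 below every other. It was the 1 tested member with a lower mean in knockout, 2.07 ± 0.62 (SD, n = 5) against 2.48 ± 0.74 (SD, n = 4). The difference was −0.41 ± 0.40 (SE; limma adjusted p = 0.849; exact permutation p = 0.405), with an interval from −1.29 to 0.47, or 0.408 to 1.39 times wild type. WT 4 carried most of it, since without that array the difference was −0.07. On slide 4 alone the sign turned, to 0.50.

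**Figure D2:**
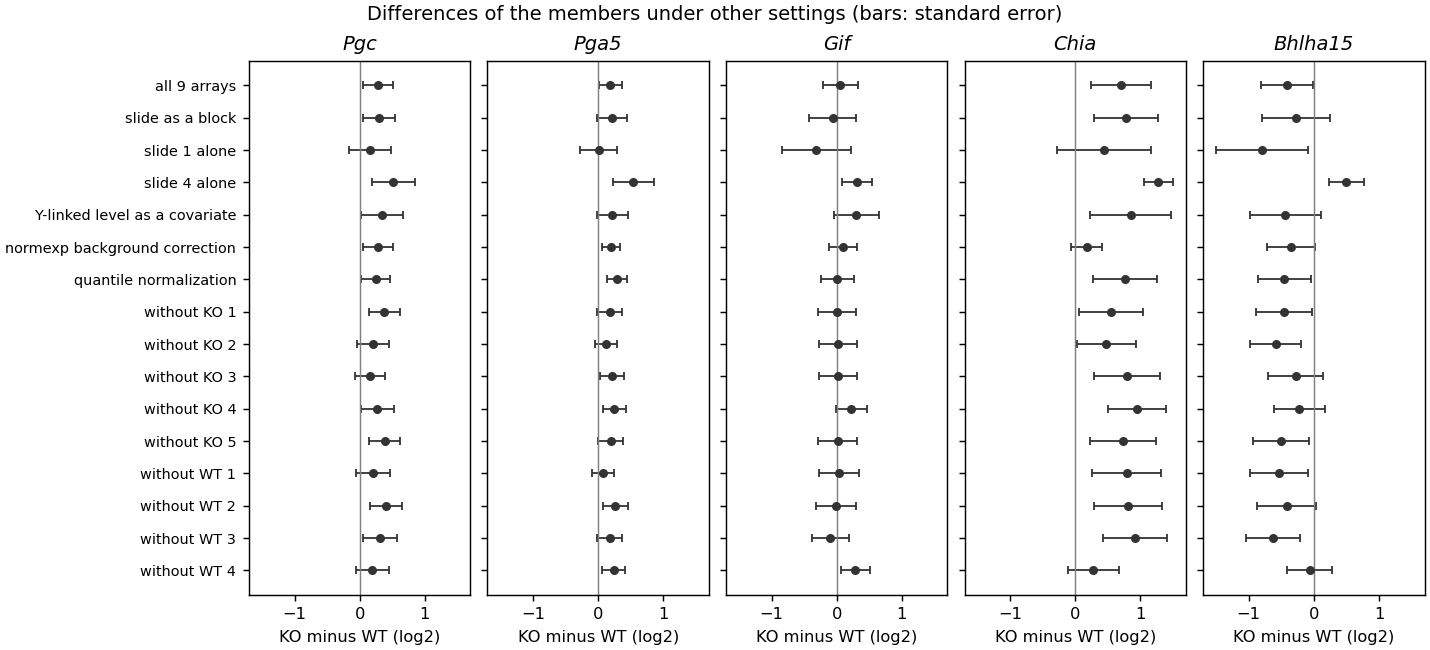
Log2 difference, knockout minus wild type, of the 5 members tested, with standard errors as bars, for all 9 arrays and for other settings on the vertical axis. Pgc, Pga5 and Chia lie above 0 in every setting drawn, whereas Gif and Bhlha15 cross it.

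The members did not move as 1 block from mouse to mouse. Over the 10 pairs of tested members and 9 arrays, Pearson's r ran from −0.39 for Pgc with Bhlha15 to 0.76 for Gif with Bhlha15. For Gif with Bhlha15 the exact permutation p was 0.0186, or 0.186 after Benjamini-Hochberg adjustment over the 10 pairs, and Spearman's rho was 0.57 (exact permutation p = 0.121, adjusted 0.402). Without KO 4 and WT 3, the arrays farthest from Gif's median, r was 0.59. After each group's mean was removed it was 0.83. Pgc with Pga5, the pepsinogens, gave r = 0.39 and rho = 0.27 (exact permutation p = 0.312 and 0.493; adjusted p = 0.520 and 0.617), and r = 0.17 without KO 2 and KO 3. No pair passed the adjusted threshold, and each slide held too few arrays for a value of its own.

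Genes whose levels were most like a member's over the 9 arrays are given as a description only, out of 21720 genes with a value on every array. All points share the same arrays and scaling. For Pgc the closest were Tes (r = 0.94), a focal adhesion gene, Sar1a (r = 0.94), a GTPase of the vesicles that leave the endoplasmic reticulum, a predicted gene without a symbol, and Sec11c (r = 0.895), a subunit of the signal peptidase. For Pga5 they were a pair of long noncoding RNA probes and Tmprss2 and Slc16a5 (r = 0.92 for both), a membrane serine protease and a monocarboxylate transporter relative. For Gif they were Aph1a (r = 0.98), a γ-secretase subunit, Pacrgl (r = 0.98) and a pair of entries without a symbol. For Bhlha15 they were Stx18 (r = 0.97), a syntaxin of the endoplasmic reticulum, Coa3 (r = 0.97), a cytochrome oxidase assembly factor, a long noncoding RNA probe and a predicted gene.

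Other genes known from chief cells and zymogen granules were mostly higher in knockout, though none passed the test. Of 27 listed, 24 were tested and 0 were called. The mean was higher in knockout for 19, or 79.2%, beside 53.0% of all genes. The median difference was 0.44 beside 0.02 over all genes. The list's mean level ran from 1.07 to 1.35 on the knockout arrays and from 0.65 to 0.94 on the wild-type arrays, which did not overlap. Its summed level, in multiples of the scaling percentile, did overlap, at 289.5 to 546.2 in knockout and 270 to 469 in wild type. Groups apart in the list mean were not particular to chief cell genes. The means of the pit cell, endocrine and intestinal lists read below lay apart too, with knockout the higher. Those of the parietal, neck cell, squamous, pancreatic and salivary lists overlapped. The 19 genes with the higher mean in knockout became 18 with quantile normalization and 20 with normexp. At an unadjusted p of 0.05 there were 7, against 8.84% of all genes, 6 of them higher in knockout and 1 lower. The lower one was Chrm3, a muscarinic acetylcholine receptor, at −2.17 ± 0.19 (SD, n = 5) in knockout and −1.69 ± 0.10 (SD, n = 4) in wild type. Its groups did not overlap and differed by −0.47 ± 0.14 (SE; limma adjusted p = 0.374). In the list, 4 of 24 genes had groups that did not overlap, against 3.40% of all genes.

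Pnliprp2, a pancreatic lipase relative, had the smallest p of them. Its log2 level was −2.38, −1.64, −2.52, −2.58 and −2.42 on KO 1 to KO 5, against −3.38, −3.33, −3.55 and −3.75 on WT 1 to WT 4, with WT 3 and WT 4 not well above background. The lowest knockout array exceeded the highest wild-type array, and the means were 1.19 ± 0.21 apart (SE; limma adjusted p = 0.0775), and normexp left 0.30 of that.
Aqp5, a water channel, also stands in the salivary list used below, so this list is not one of chief cells alone. Its log2 level was 1.56, 0.92, 2.71, 0.62 and 1.09 on KO 1 to KO 5, against −0.80, −0.03, −1.13 and −0.70 on WT 1 to WT 4. Its groups also lay apart, with a difference of 2.04 ± 0.40 (SE; limma adjusted p = 0.124). Slc12a2, a chloride cotransporter, differed by 0.66 ± 0.17 (SE; limma adjusted p = 0.266) with groups apart. Clps, the colipase gene, overlapped between groups, at 7.50 ± 0.63 (SD, n = 5) in knockout and 7.13 ± 0.45 (SD, n = 4) in wild type, a difference of 0.37, or 0.58 without WT 4.

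Sytl2, a synaptotagmin-like protein of secretory granules, was 0.84 ± 0.24 higher in the knockout mean (SE; limma adjusted p = 0.328). Leaving out WT 4, whose level of 1.36 lay among the knockout values of 1.20 to 1.75, it rose by 1.06 ± 0.18 (SE; limma adjusted p = 0.0424). Without that array 149 genes were called in all, 0.686% of those tested, in place of 45. It was then the 1 chief cell gene called of 24, and the members still gave 0 of 5.

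Genes of the secretory machinery that matures under Mist1 and the unfolded protein response were read as another list. All 30 listed were tested, 0 were called, and 25 had the higher mean in knockout, 83.3% beside 53.0% of all genes. That count was 22 with quantile normalization and 18 on slide 1 alone. The median difference was 0.08, and 0.16 without WT 4. The smallest p values belonged to Ccpg1 (0.65 ± 0.21; SE), an endoplasmic reticulum stress gene, Gjb1 (0.62 ± 0.21; SE), a gap junction gene, and Pdia2 (0.54 ± 0.21; SE), a protein disulphide isomerase, with limma adjusted p of 0.406, 0.436 and 0.494. Xbp1, the transcription factor that acts upstream of Mist1 in this programme, was 5.81 ± 0.26 (SD, n = 5) in knockout and 5.47 ± 0.19 (SD, n = 4) in wild type, with overlapping groups.

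**Figure D3:**
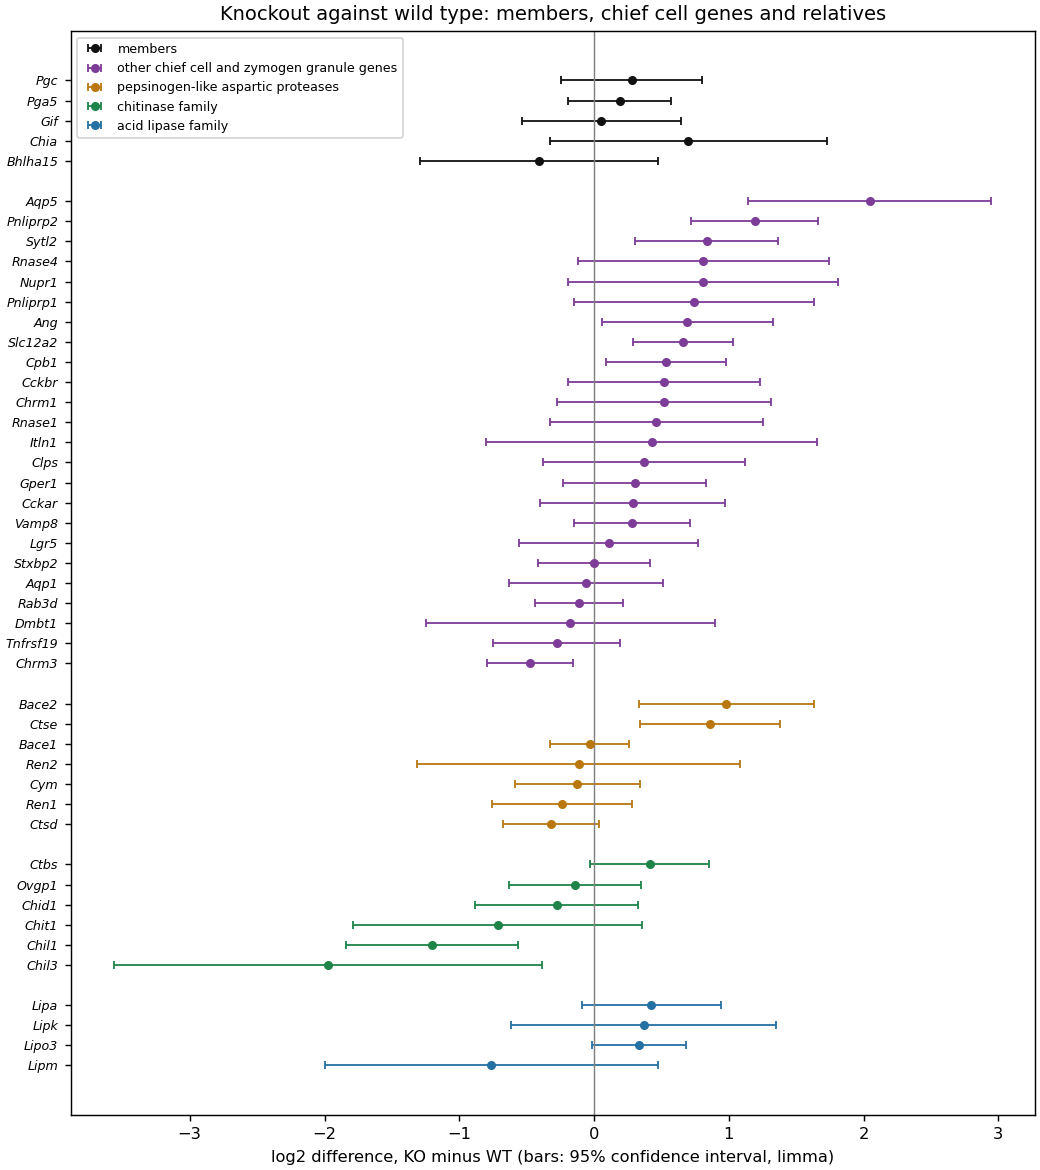
Log2 difference, knockout minus wild type, with its 95% confidence interval (limma) for the tested members, other chief cell genes, and relatives of the pepsinogens, the chitinase and the lipase. Intervals are for single genes and are not adjusted for their number. The intervals of all 5 members cross 0, while those of Aqp5, Pnliprp2, Chil1, Slc12a2, Sytl2, Chrm3, Ctse and Bace2, among others, do not.

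Relatives of the pepsinogens were read next, 7 of 8 listed being tested, with 0 called and 2 higher in the knockout mean. Cym, chymosin, the milk-clotting protease of the suckling stomach, stood at 10.79, 10.80, 10.33, 10.43 and 10.40 on KO 1 to KO 5 and at 10.36, 10.66, 10.44 and 11.24 on WT 1 to WT 4. Its groups overlapped and differed by −0.12 ± 0.21 (SE; limma adjusted p = 0.939; 95% interval −0.59 to 0.34), and without WT 4 the sign turned, to 0.06.

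Ctse, cathepsin E, an aspartic protease known from surface mucous cells, was 5.60, 5.98, 5.97, 5.57 and 5.95 on KO 1 to KO 5, against 4.55, 4.95, 4.66 and 5.65 on WT 1 to WT 4. Bace2, a β-secretase relative, ran from 5.68 to 6.13 on the knockout arrays and was 4.74, 4.72, 4.33 and 5.91 on WT 1 to WT 4. For both genes WT 1 to WT 3 lay below all knockout arrays and WT 4 among them. With all arrays the differences were 0.86 ± 0.23 for Ctse and 0.98 ± 0.29 for Bace2 (SE; limma adjusted p = 0.297 and 0.364). Without WT 4 both were called, Ctse at 1.09 ± 0.17 and Bace2 at 1.31 ± 0.18 (SE; limma adjusted p = 0.0330 and 0.0172). Ctsd, cathepsin D of lysosomes, differed by −0.32 ± 0.16 (SE; limma adjusted p = 0.626). Napsa, napsin A, was well above background on 3 of 5 knockout arrays and on 0 wild-type arrays. It was not tested. Its approximate fold, with the dim KO 1 and KO 2 counted, was 1.47 with knockout the higher, which is not a lower limit.

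Chitinase relatives mostly had the lower mean in knockout. Of 10 listed, 6 were tested, 0 were called and 1 was higher in the knockout mean, with a median difference of −0.50, or −0.84 without WT 4. Chil1, a chitinase-like protein without enzyme activity, was −3.38, −2.72, −2.93, −2.91 and −3.69 on KO 1 to KO 5, against −1.80, −1.73, −1.45 and −2.71 on WT 1 to WT 4. The groups did not overlap, though WT 4 lay next to KO 2. The difference was −1.20 ± 0.29 (SE; limma adjusted p = 0.242), and without WT 4 Chil1 fell by 1.47 ± 0.23 (SE; limma adjusted p = 0.0332).

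Chil3, known as Ym1 and made by myeloid cells, differed by −1.97 ± 0.71 (SE; limma adjusted p = 0.464) with overlapping groups, and was well above background on 3 of 5 knockout arrays. Its relative Chil4 was well above background on WT 1, WT 2 and WT 3 and on 0 knockout arrays. Chil4 was not tested. Its approximate fold, with the dim WT 4 counted, was 2.44 with knockout the lower, which is not a lower limit. Ctbs, a lysosomal chitobiase, was the relative with a higher mean, by 0.41 ± 0.20 (SE; limma adjusted p = 0.594).

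Of the acid lipase family, 8 genes were listed, 7 were on the array and 4 were tested, with 0 called. Lipo3 (0.33 ± 0.16), Lipa, the lysosomal acid lipase (0.42 ± 0.23), and Lipm of the epidermis (−0.76 ± 0.55) had the smallest p (SE; limma adjusted p = 0.582, 0.664 and 0.782). Without WT 4, Lipm differed by −1.40 ± 0.33 (SE; limma adjusted p = 0.101) and the median of the 4 went from 0.35 to 0.04. Lipn, another epidermal member, was well above background on 3 wild-type arrays and 0 knockout arrays. It was not tested, and its approximate fold was 1.42 with knockout the lower, which is not a lower limit.

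For Gif, the other genes of vitamin B12 uptake and handling gave 8 tested of 9, with 0 called and 6 higher. Lmbrd1, which exports the vitamin from lysosomes, differed by 0.38 ± 0.14, Tcn2, the blood carrier, by 0.36 ± 0.18 and Mmachc, its intracellular processing enzyme, by 0.19 ± 0.17 (SE; limma adjusted p = 0.452, 0.629 and 0.826). For Bhlha15, 15 of 20 basic helix-loop-helix relatives and inhibitors were tested, with 0 called and 11 higher. Id2 and Id3, which block such factors, and Tcf12, a partner of them, had the smallest p, at 0.68 ± 0.26, 0.38 ± 0.22 and 0.45 ± 0.21 (SE; limma adjusted p = 0.494, 0.703 and 0.597), and without WT 4 Id3 was at 0.15.

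Markers of the neighbouring gland cells were read on the same arrays. Pit cell genes, of the gastric surface, had the higher mean in knockout for 8 of 8 with a median of 1.14, and Gkn2 rose by 1.79 ± 0.25 (SE; limma adjusted p = 0.0252). That call was lost with slide as a block (limma adjusted p = 0.296), on slide 1 and slide 4 alone (0.797 and 0.0520), with the Y-linked covariate (0.213), without the filter on dim probes (0.0623) and on leaving out any of KO 1, KO 3, KO 4, WT 1, WT 2 or WT 3 (0.0508 to 0.106). Capn9 and Gkn1 followed, at 1.46 ± 0.25 and 1.85 ± 0.36 (SE; limma adjusted p = 0.0733 and 0.122). Their summed level, in multiples of the 75th percentile, ran from 1557 to 2385 in knockout and from 1103 to 1986 in wild type. Without WT 4, Gkn1, Gkn2, Capn9, Sult1c2 and Mucl3 were called, beside Ctse, Bace2, Sytl2 and Chil1. The part of pit cells in the differences of Ctse, Bace2 and Sytl2 was not tested.

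Parietal markers gave 7 of 9 higher with 0 called, led by the chloride transporter Slc26a9 (0.74 ± 0.20), the potassium channel Kcnq1 (0.56 ± 0.19) and the nuclear receptor Esrrg (0.72 ± 0.27), and summed levels of 283 to 493 in knockout and 241 to 353 in wild type. Neck cell markers gave 4 of 7 higher with 0 called, the smallest p being those of Tff2 (0.66 ± 0.17), Muc6 (1.02 ± 0.31) and Wfdc2 (−0.82 ± 0.26), and sums of 162 to 219 in knockout and 105 to 151 in wild type. Endocrine markers gave 8 of 8 higher with 0 called, first Hdc (0.87 ± 0.19), Chgb (1.27 ± 0.31) and Chga (0.75 ± 0.20), and sums of 124 to 235 in knockout and 60.9 to 113 in wild type. All errors in this paragraph are SE, and the adjusted p of these 9 genes ran from 0.177 to 0.472 (limma).

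Forestomach squamous markers were higher in 2 of 11 with 0 called, the smallest p being those of Krt10 (−1.60 ± 0.90; SE), Krt1 (−1.81 ± 1.16; SE) and Lor (−0.58 ± 0.44; SE). Without WT 4, Krt10 was at −2.54 and Krt1 at −2.92. They summed to 487 to 1330 in knockout and to 640 to 2064 in wild type, with WT 4 the lowest by list mean. WT 4 was also the array with the highest Gif and Bhlha15 and the lowest Chia, and the part of the tissue's makeup in these values was not tested.

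Pancreas and salivary gland, which share several of these genes, were checked as well. Of 18 pancreatic acinar genes on the array 12 were tested with 0 called, and their sums ran from 14.0 to 30.0 in knockout and from 12.4 to 21.9 in wild type. Of the 18, only 2, Pnlip and Prss2, were not well above background on any array, and Prss1 and Cela2a were well above it on 1 wild-type array each. Ctrb1 was well above background on every array and Cela3b on every array but KO 4. Whether pancreas was present in the samples was not tested. Smallest in p were Cela3b (−1.16 ± 0.25), Rbpjl (0.65 ± 0.23) and Ctrb1 (−1.08 ± 0.49; SE; limma adjusted p = 0.174, 0.464 and 0.577). Without WT 4, Ctrb1 differed by −0.44. It was 0.94 on WT 4 and −2.30 to −1.54 on the other arrays, and WT 4 had the highest Bhlha15. The pancreatic list mean was −0.74 on WT 4 and −0.81 on KO 5, where Bhlha15 was 2.46. A link between pancreatic genes and Bhlha15 was not tested. Of salivary genes, Bpifa2, Smgc and Dcpp1 were not well above background on any array, and the 3 tested were Aqp5, Amy1 (0.60 ± 0.73; SE) and Prb1 (0.03 ± 0.26; SE), the last 2 at 1.38 and 0.29 without WT 4. Intestinal genes were higher in the knockout mean for 5 of 5, led by Apoa4 (1.89 ± 0.65; SE), Fabp2 (1.00 ± 0.40; SE) and Vil1 (0.42 ± 0.22; SE), with 0 called and sums of 11.9 to 21.3 in knockout and 6.55 to 13.7 in wild type.

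**Figure D4:**
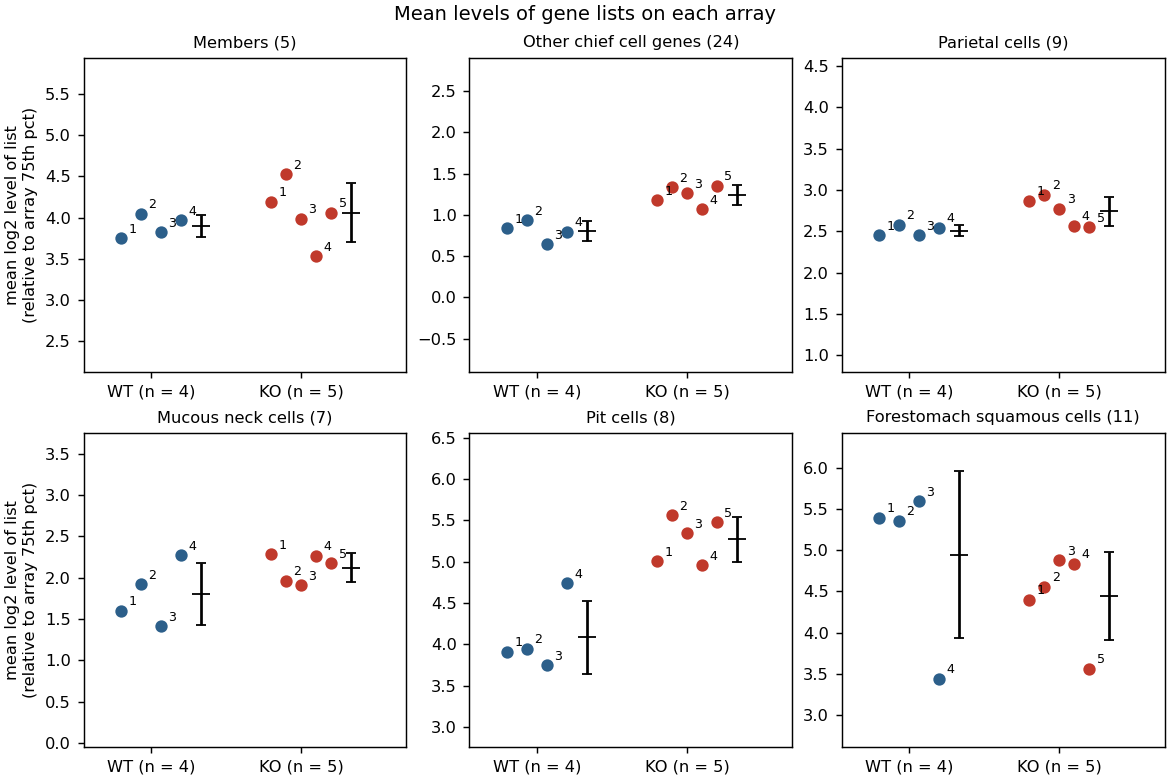
Mean log2 level per array, relative to the 75th percentile, of the 5 tested members and of lists of other cell types, with the number of genes in each title. Points are mice, small digits their numbers, and bars mean ± SD for 4 wild-type (WT) and 5 knockout (KO) arrays. The means of the members overlap between groups, those of the other chief cell genes and of the pit cell genes do not, and WT 4 is low for squamous genes.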

How the data were processed

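Each array gave 1 scanner table. Per the file headers, the authors made the spot intensity with Agilent Feature Extraction 10.5.1.1 (protocol GE1_107_Sep09), while the submitters' processing notes name version 9.1. The deposited tables also hold other values, yes or no flags per spot. The authors' series matrix holds log2 values, which matched log2 of the processed signal within 0.001 for 100% of 22285 probes after a shift per array. What it is centred on is unknown, and its column medians ran from −0.28 to 0.38.

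Control and outlier spots were left out and log2 signals averaged per probe, then scaled to the array's 75th percentile. Probes were kept where at least 4 of 9 arrays read them well above background (30203), and a gene was read from its brightest probe. The groups were set against each other by limma 3.58.1 in R 4.3.3, two-sided, with Benjamini-Hochberg adjustment. A simulated data set was also run through this comparison, built from each gene's mean and residual spread with independent normal noise. It held no shared slide, sex or tissue effect, and the changed genes were picked at random. There, 42% of 100 genes given a log2 change of 1 were recovered, and 86% of 100 given a change of 2. Of the 136 genes called in it, 8 were false. The exact two-sided permutation test over 126 splits cannot go below p = 0.00794. An approximate fold is the mean of the brighter group over that of the dimmer. In the dimmer group each array takes the higher of the probe's signal and the array's lowest signal well above background. That lowest signal is over all probes of the array. A probe can lie above it and still not be well above background, so the approximate fold is not a strict bound. The brighter mean also takes in arrays not well above background, and an approximate fold has no test. SE is limma's moderated error. Other settings varied the scaling, background correction, filter, probe choice, table, slide, mouse number, Y-linked level and arrays left out.

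Accessions of 26756 of 55681 probes matched RefSeq (GRCm38.p6). Members and lists were chosen with earlier results of these data known. Named are the members, the genes most like a member, Cebpb, and of each list the genes called and the 3 with the smallest p; Clps, Sytl2, Chrm3, Xbp1, Cym, Chil4, Lipn, Napsa, Sult1c2, Mucl3 and the dim pancreatic and salivary genes were chosen after their values were seen. The 4 motifs and the way the percentile is taken were also settled after the data were seen. The labels number separate mice, with 1 array each, and the number of arrays limits the precision.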

Additional observations from a re-analysis of the deposited data

Results flagged for a closer look

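Gif on KO 4 lay far below the other knockout arrays, at a log2 level of 4.36473 against 5.16 to 5.25 on the other 4. The gap to the nearest of them was 0.90 of the whole range, above Dixon's 95% critical value for 5 samples. Chance passes it in about 1 in 20 groups, and 12 groups of member values were looked at.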

How the results depend on the processing

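No member passed the threshold with all arrays or in the 20 other settings tried, and there Pgc, Pga5 and Chia stayed above 0, at 0.16 to 0.52, 0.01 to 0.54 and 0.17 to 1.28. Gif turned to −0.0642 with slide as a block and to −0.312 on slide 1 alone, and leaving out 1 array at a time gave −0.0961 to 0.284. Bhlha15 turned to 0.4998 on slide 4 alone. Over all genes 45 were called, 25 without the filter on dim probes, 5 with slide as a block, 2 on slide 1 alone, 6 with a covariate for the Y-linked level, and 10 to 149 with 1 array left out, the lowest without WT 1 and the highest without WT 4. WT 4 also decided the counts in the lists: without it the other chief cell genes gave 1 call and the families of the members 3, and otherwise 0 with 1 array left out. Same-numbered mice did not all deviate together (r = −0.30, 0.12, 0.15 and −0.48 for numbers 1 to 4). These values gave no sign that the numbers pair the samples but, without a reference for them, cannot exclude it. The replicate block, which leaves out KO 5, gave 4 calls, with no member and not Gkn2 (limma adjusted p = 0.197) among them. Taking the percentile over spots, an alternative chosen after seeing the data, gave 44 calls and lowered each member's difference by 0.01. Lipf, not well above background on any array, was not compared between groups under any setting. With 9 arrays, true changes of the members within the intervals given could have been missed. In the simulated data, 42% of genes with a log2 change of 1 and 86% of those with a change of 2 were recovered. These rates are for genes picked at random under independent noise and are not rates for the members. Signal near background limits Chia.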
